A study of Rattus norvegicus with 15 samples.

Results

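The native, untreated kidneys of 5 male Lewis-Brown-Norway (LBN) rats, 10 to 12 weeks old, were profiled on 1 Affymetrix Rat Genome 230 2.0 array each. They form the control group (ctr) of a kidney transplantation series of 15 arrays. Here they are taken alone as a picture of the native rat kidney. All 5 arrays titled as LBN controls were included, and they are called kidney 1 to kidney 5 by the numbers in their titles. The series description gives the controls as the second kidneys of LBN rats that donated a graft, so each comes from a separate animal. The part of the graft donation in their values was not tested. No group here carries an allele or an agent beyond the strain. The values are the signal intensities that the MAS5 algorithm gives each probe set, the group of short probes for 1 transcript. Without the 57 Affymetrix control probe sets, 31042 probe sets were ranked by the geometric mean of their signals. Of these, 20826 had 1 gene symbol, and 14217 genes were described by their strongest probe set.

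The kidney filters plasma in the glomeruli and recovers most of the filtrate in the proximal tubule, whose cells are packed with mitochondria, apical carriers and peptidases. The thick ascending limb takes up salt without water and secretes uromodulin, and the distal tubule and collecting duct, made of principal and intercalated cells, set the final balance of salt, water and acid. A signal depends on how well each probe binds as well as on the transcript, so ranks below are ranks of signal and not of transcript copies. In tissue RNA, fewer cells of a type and less RNA per cell cannot be told apart.

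The signals fell into a steep hierarchy. Only 13 probe sets, 0.0419% of all, reached a geometric mean of 5000, and 905 reached 1000. A further 7238 lay between 100 and 1000, which put 8143 probe sets, or 26.2%, at 100 or more. At the other end 14405 probe sets, 46.4%, were under 20. The 100 strongest probe sets held 9.32% ± 0.893 (SD, n = 5) of the summed signal, at 9.15%, 8.53%, 8.44%, 10.4% and 10.1% in kidneys 1 to 5, and the 1000 strongest held 42.5% ± 1.47. Kidneys 4 and 5 had the more concentrated signal.

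**Figure D1:**
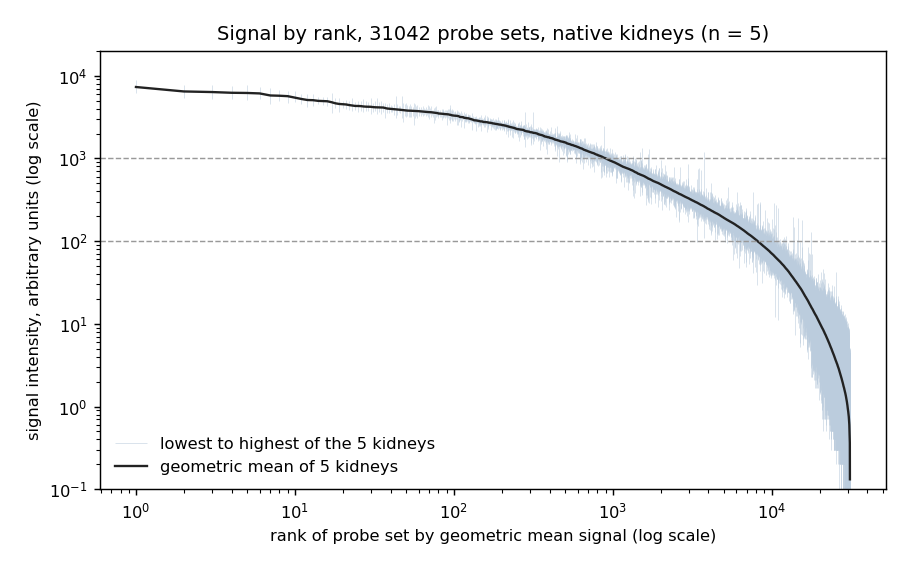
Signal intensity (log scale) against the rank of each of 31042 probe sets by geometric mean (log scale), with the black line at the geometric mean of the 5 kidneys, vertical bars from the lowest to the highest kidney, and dashed lines at 100 and 1000. The bars are short above 100, where 8143 probe sets lie, and long at the weak end.

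The same probe sets led in each kidney. Of the 100 strongest in a kidney, 75 were among the 100 strongest in all 5, and any pair of kidneys shared between 85 and 94 of them. Over all probe sets the log2 signals of the 10 pairs of kidneys correlated at a median Pearson r of 0.934, from 0.929 to 0.942, and over the probe sets at 100 or more at 0.983, from 0.962 to 0.986. These correlations are across probe sets of arrays scaled to a common mean, and probe sets are not independent replicates.

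Genes of the respiratory chain, of proximal tubule transport and metabolism, and of protection from oxidants headed the list of named genes. COX1, a cytochrome c oxidase subunit made by the mitochondrial genome, was the strongest named gene, with signals of 6026.0, 5360.8, 5983.3, 7577.6 and 7633.0 in kidneys 1 to 5. Its partner COX2 gave 6318.7, 5291.3, 5605.0, 7721.9 and 7114.9. Gpx3, the secreted glutathione peroxidase made mainly by the kidney, gave 6012.1, 5069.6, 5400.9, 7697.7 and 7141.1. All 3 were higher in kidneys 4 and 5 than in the other kidneys. At this level kidney 4 was highest for 70 of the 100 strongest probe sets and kidney 5 for 29.

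Next came Slc3a1, which pairs with a carrier of cystine and basic amino acids in the brush border, at 5716.1, 4957.0, 5144.4, 6628.1 and 6372.2. Kap, the androgen-dependent kidney androgen-regulated protein, had a geometric mean of 5433.5, and the peroxisomal oxidase Hao2 one of 5082.6. Miox, which opens the ring of myo-inositol, reached 5060.0 with an SD of 0.20 on the log2 scale. Kap and Miox were lowest in kidney 2 and Hao2 in kidney 3, and kidney 4 was highest for each of these. Ass1 of arginine synthesis (4067.8) and Fbp1 of gluconeogenesis (4012.6) also stood among the 25 strongest genes, as did Slc34a1, the main phosphate carrier of the proximal brush border (4146.9). Of these 25 genes, 7 belong to the 2 proximal tubule lists.

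Among the segment lists, the strongest gene from outside the proximal tubule was Umod, which encodes uromodulin of the thick ascending limb, at 4710.5, 4274.0, 4685.9, 5522.1 and 5478.2. Other genes among the 25 were Gclc, the catalytic subunit for glutathione synthesis (4933.2), Selenop, a selenium carrier protein (4782.5), Tff3, a trefoil peptide (4519.4), Atp5f1b, the beta subunit of ATP synthase (4635.6), and Atp1b1, the beta subunit of the sodium pump (4287.8). Mt2A, a metallothionein, gave 4208.6, and Cyp2c23, an epoxygenase of arachidonic acid, 4147.4. Rps29 of the small ribosomal subunit gave 4965.0, Cox8a of cytochrome c oxidase 4121.3, and the antioxidant protein Txn1 4221.1. Eno1 (4490.3) and Akr1a1 (4413.4) are enzymes of glycolysis and aldehyde reduction, Actg1 (4153.5) encodes cytoplasmic gamma-actin, and Itm2b (4308.2) a membrane protein. Of the 40 strongest probe sets, 12 had no single symbol, including the strongest of all, an unnamed probe set at 7302.0, and sets shared by close relatives such as Cyp4a2 and Cyp4a3 (5768.9) or Fth1 and its pseudogene (5231.3).

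**Figure D2:**
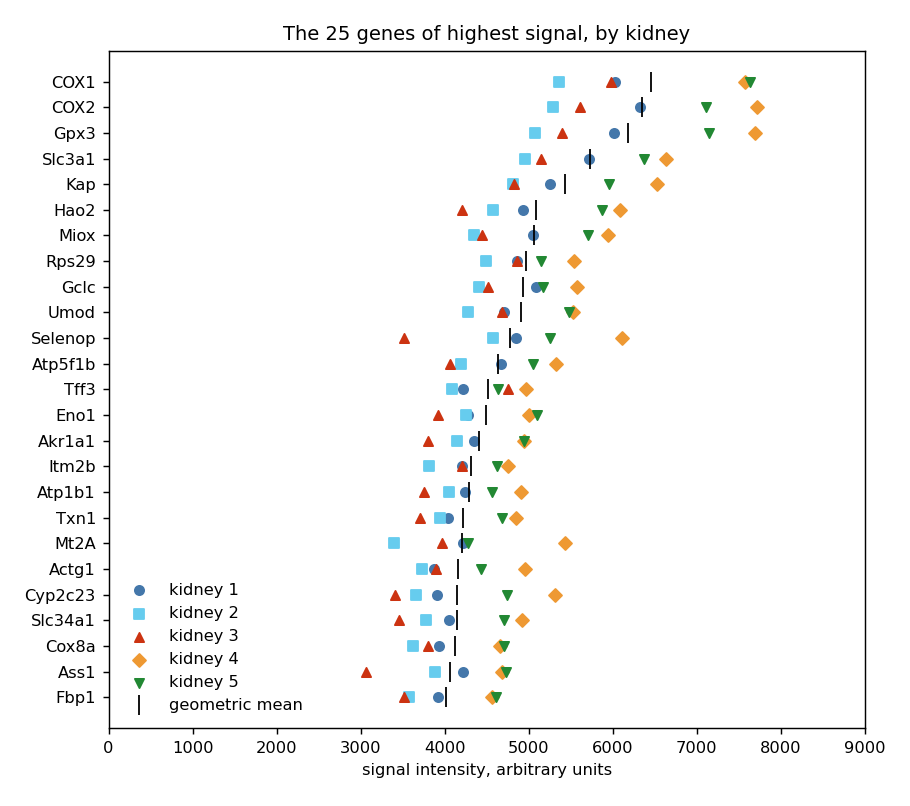
Signal intensity in each of the 5 kidneys (coloured markers) and the geometric mean (black tick) for the 25 genes of highest signal. Kidney 4 was highest for 19 of the 25 genes and kidney 5 for 6, while kidney 2 was lowest for 14 and kidney 3 for 11.

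The tilt among the strong signals ran through the whole top of the table. Kidney 4 was the highest of the 5 for 70 of the 100 strongest probe sets and kidney 5 for 29, against 19.7% and 18.3% of the 8143 probe sets at 100 or more. Their median distance above the other 4 kidneys was 0.26 and 0.21 on the log2 scale, and the medians of kidneys 2 and 3 were -0.20 and -0.23. After each array was centred on its median, kidney 4 was highest for 88 and kidney 5 for 11 of the 100, with medians of 0.29 and 0.16. Quantile normalization gives every array the same set of values and so removes such a tilt by construction. Kidneys 1 to 4 were washed on 1 fluidics station and kidney 5 on another, so the station and any difference of kidney 5 cannot be told apart. The ratio of 3' to 5' signal, a measure of RNA length, was 1.14, 1.17, 1.25, 1.17 and 1.13 for Gapdh and 1.62, 1.98, 1.79, 1.77 and 1.54 for beta-actin in kidneys 1 to 5. The Gapdh ratio was highest in kidney 3, and both ratios were lowest in kidney 5.

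Read by nephron segment, proximal tubule genes had the highest signals. The proximal tubule transport list, with 26 of 28 genes measured, had 24 in the top 10% of all probe sets (a signal of at least 317) and a median of 1191. After Slc3a1 and Slc34a1 came the water channel Aqp1 at 3085.5 and the endocytic receptor megalin, Lrp2, at 2588.0. Only Slc5a1, the glucose carrier of the late proximal tubule, was under 100, at 52.0. The list of proximal enzymes and peptidases had a higher median, 1877, with 17 of its 22 measured genes in the top 10%.

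Genes of the thick ascending limb had the next highest median among the segment lists, 905, with 6 of 10 measured genes in the top 10% and all 10 at 100 or more. Below Umod were Egf, the epidermal growth factor precursor (2414.4), the paracellular channel Cldn10 (1738.1), the phosphatase inhibitor Ppp1r1a (1418.3) and Slc12a1, the furosemide-sensitive cotransporter (1289.7). Egf gave 2336.0, 2245.7, 2388.3, 2637.2 and 2482.9, and Slc12a1 1294.3, 1362.3, 1272.2, 1307.9 and 1216.1. Both lay within 1.17-fold between the lowest and the highest kidney.

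Of the distal convoluted tubule list, Fxyd2, the gamma subunit of the sodium pump, led at 3402.5, and it is made in other segments too. The thiazide-sensitive cotransporter Slc12a3 reached 521.5, the kinases Wnk1 and Stk39 1025.5 and 295.2, and Pvalb, a marker of the early part of this segment, was near 0 at 1.44. The list median was 216. The list of connecting tubule and principal cells had a median of 206. Its strong members were tissue kallikrein Klk1 (2168.7), the vasopressin-regulated water channel Aqp2 (2030.6), the calcium buffer Calb1 (1951.7) and Hsd11b2, which inactivates corticosterone (1352.7). The calcium channel Trpv5 was listed at only 13.5. In intercalated cells the carbonic anhydrase Car2 gave 1612.3, the proton pump subunits Atp6v0a4 and Atp6v1g3 1443.3 and 985.7, and the ammonia channel Rhcg 361.2, with a list median of 256.

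Lists of cells outside the tubule had medians below those of the proximal tubule and thick limb, but not below all of the later segments. Of 10 podocyte genes measured 4 reached 100, led by Cd2ap (605.9) and Podxl (338.3), and nephrin, Nphs1, was at 76.4. Endothelial genes had a median of 205, led by Emcn (755.2), Plvap (720.6), Kdr (422.7) and Tek (359.1). Smooth muscle and pericyte genes had a median of 114, with the angiotensin receptor Agtr1a at 473.4. Fibroblast and matrix genes had a median of 364, above the distal convoluted tubule, principal cell and intercalated cell lists, with 9 of 15 genes in the top 10%, among them collagen IV, Col4a1, at 754.8.

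Immune cell genes other than those of antigen presentation were mostly low. In macrophages lysozyme, Lyz2, reached 1806.9, whereas C1qc and C1qa were at 168.8 and 168.3, the receptor Csf1r at 127.7 and Cd163 near 0 at 2.15. None of the 15 T and NK cell genes reached 100, with Lck highest at 48.7 and Cd3e at 15.1. Blnk was the only B cell gene over 100 (134.0), and the B cell antigen Ms4a1 was at 8.26. By contrast 6 of 8 MHC class II genes were in the top 10%, led by the invariant chain Cd74 at 1806.0, RT1-Bb at 933.8 and RT1-Da at 867.3, and the class I light chain B2m reached 3969.4.

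Markers of neighbouring tissues were mostly at the bottom of the range. All 7 urothelial genes and all 10 adrenal genes were under 100, for example Upk2 at 12.7, Th at 10.5 and Star at 3.51. Of the 10 skeletal muscle genes, 9 were under 20, including creatine kinase Ckm at 4.84, while Myh1 alone stood at 1724.5. The 5 probe sets named Myh1 ranged from 123 upward, and no other muscle marker went with it. Whether these probe sets measure Myh1 was not tested. The Y-linked genes Eif2s3y (258.4) and Uty (103.4) were present and Xist was near 0 (3.48), as labelled for male rats.

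Housekeeping and metabolic programs ranked high. Of 26 oxidative phosphorylation genes, 25 were in the top 10% with a median of 2748, and of 20 ribosomal protein genes 19, with a median of 2634. The exceptions were Cox5a at 82.4 and Rpl30 at 2.47, each read from 1 probe set. Fatty acid oxidation had 16 of 18 genes in the top 10%, led by the medium-chain dehydrogenase Acadm at 2802.4, and 18 of 24 xenobiotic and antioxidant enzymes were there. The median SD of log2 signal of these lists at 100 or more was 0.10, 0.09, 0.13 and 0.16, beside 0.14 for all probe sets at 100 or more and 0.11 for those between 1000 and 5000. Oxidative phosphorylation and ribosomal genes thus lay below both values, and xenobiotic and antioxidant enzymes above both.

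Genes of injury and division were split. Spp1, osteopontin, was strong at 1848.5, but the tubular injury markers Havcr1 and Lcn2 were at 9.12 and 67.6. Both were highest in kidney 3, at 33.0 and 138.7, against at most 18.6 and 67.1 in the others. Of the 8 tubular injury genes at 100 or more, kidney 3 was highest for 6 and lowest for 1. The share of all probe sets at that level with kidney 3 highest was 29.0%. Their median distance in kidney 3 from the other 4 was 0.36 on the log2 scale. The proliferation marker Mki67 was at 19.8, and of 17 cell cycle genes only Pcna, which also serves DNA repair, passed 100 (678.6). The lists of immediate early, glucocorticoid-induced, heat shock and hypoxia, cholesterol synthesis, circadian clock and interferon-induced genes had medians of 230, 302, 253, 251, 143 and 81.4. Their strongest members were Jund (1520.5), Mt2A, Ndrg1 (3906.2), Fdft1 (516.8), Bhlhe40 (257.6) and Ifi27 (627.9).

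**Figure D3:**
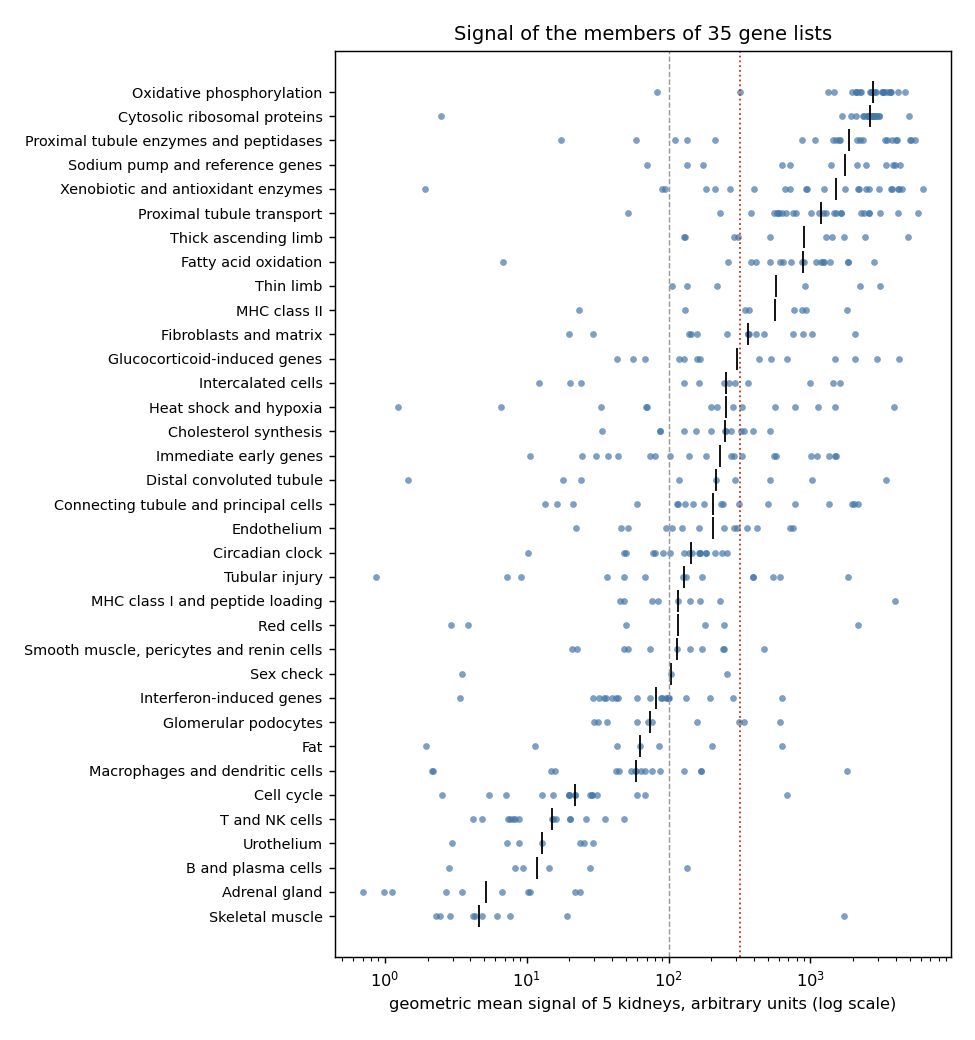
Geometric mean signal (log scale) of each measured member (dots) of 35 gene lists, with the list median as a black tick, a dashed line at 100 and a dotted line at the top 10% of probe sets. Oxidative phosphorylation, ribosomal and proximal tubule lists lie to the right, and T cell, urothelial, B cell, adrenal and muscle lists to the left.

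The spread between kidneys depended on the level. The median SD of log2 signal was 0.87 for probe sets under 20, 0.24 between 20 and 100, 0.15 between 100 and 1000, 0.11 between 1000 and 5000, and 0.22 for the 13 above 5000. Among the 8143 probe sets at 100 or more, 218 (2.68%) had a highest kidney more than 2-fold above the lowest. Without kidney 3 the count was 60, so that kidney decided most of it.

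The 10 steadiest genes at 100 or more had SDs of 0.01 to 0.02. Srp14, a subunit of the signal recognition particle, gave 898.5, 891.9, 904.4, 897.1 and 901.9. The integrin-linked kinase Ilk gave 602.6, 582.7, 593.9, 591.3 and 595.9, and the mitochondrial ribosomal protein Mrpl15 1140.1, 1128.6, 1151.7, 1161.3 and 1168.0. Txndc5 and Mettl9 were as even, at 244.5 and 930.0. These genes were picked for their evenness, so this is a description.

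The 25 most variable genes at 100 or more had 2.95-fold to 9.51-fold between their lowest and highest kidneys. They were picked for that spread, so their values are a description. Of the 25, 6 belong to the list of immediate early genes, which are transcribed within minutes of a stimulus. Kidney 3 was highest for 15 of the 25 and kidney 5 lowest for 13, beside 29.0% and 19.8% of all probe sets at 100 or more.

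**Figure D4:**
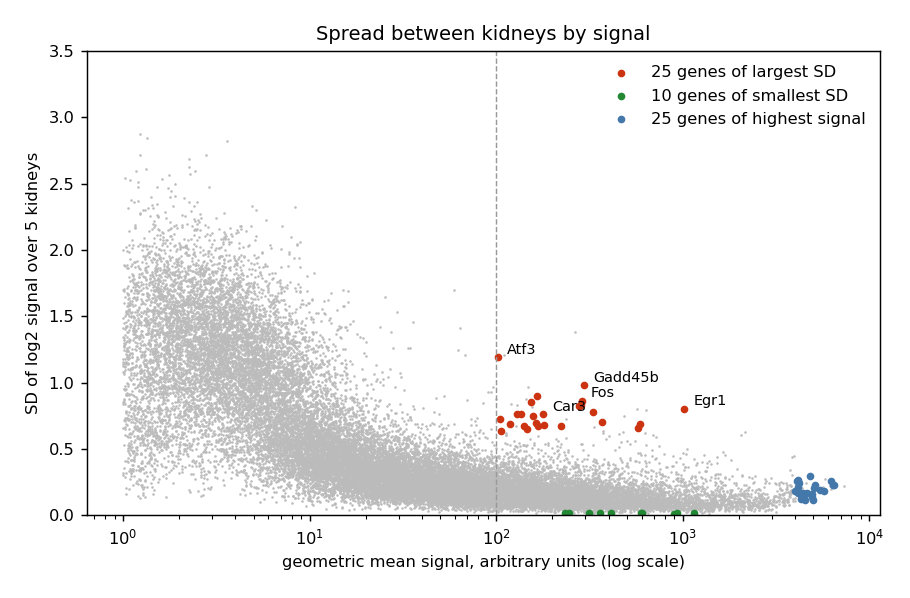
SD of log2 signal over the 5 kidneys against geometric mean signal (log scale) for each probe set with a mean of at least 1 (grey), with the 25 most variable (red), 10 steadiest (green) and 25 strongest genes (blue) marked. The median SD falls from 0.87 under 20 to 0.11 between 1000 and 5000 and is 0.22 for the 13 above 5000, and Atf3, with an SD of 1.19, stands above the other marked genes.

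Kidney 3 stood apart from the rest. At a mean of 100 or more, 22 probe sets were over 2-fold above the median of the other 4 kidneys in kidney 3, and 44 were over 2-fold below it. The corresponding counts were 1 and 3 in kidney 1, 2 and 4 in kidney 2, 11 and 2 in kidney 4, and 4 and 15 in kidney 5. Results that concern 1 kidney rest on 1 animal and 1 array, and have no replicate. Many genes named below for 1 kidney were picked for their spread or their distance, so their values are a description. The part of RNA length, for which the Gapdh ratio was highest in kidney 3, was not tested.

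Immediate early genes were higher in kidney 3. Fos gave 206.1, 183.8, 739.7, 364.0 and 191.0 in kidneys 1 to 5, and its partner Junb 248.0, 241.9, 844.7, 320.7 and 242.2. The zinc finger factor Egr1 gave 822.3, 688.1, 2466.3, 1225.4 and 635.4, and Ier2 207.6, 176.8, 716.2, 306.1 and 199.9. In each of these kidney 3 was more than 2-fold above every other kidney, and kidney 4 was the next highest. Atf3, a stress-induced factor, gave 126.5, 81.8, 279.7, 129.7 and 29.4, and the orphan receptor Nr4a1 752.3, 517.6, 990.4, 532.5 and 296.5, both highest in kidney 3 and lowest in kidney 5. Of the 13 list members at 100 or more, kidney 3 was highest for 10, again beside 29.0% of all probe sets at that level, and its median distance from the other kidneys was 0.68 on the log2 scale. The strong members Zfp36 and Dusp1 were highest in kidney 4 instead, at 1936.0 and 1729.4.

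Upstream sequences of these genes are shown because serum response factor and CREB family factors act on many of them through short motifs, the CArG box and the palindrome TGACGTCA. The table of RefSeq promoters used here (GRCr8) held 8 of the 13 genes. Within the 250 bases before the start, read on the plus strand of the gene, 3 of the 8 held a CArG box (Egr1, Zfp36 and Klf6), as did 501 of all 33469 promoters in the table, and 3 held TGACGTCA (Jund, Ier2 and Dusp1), as did 531 of all. The first motif was searched on the gene's strand and reads as a CArG box on the other strand too, TGACGTCA is its own reverse complement, and the motifs do not overlap in these genes. A match is a description of letters, not proof of a site. The motif stands in capitals in these stretches, written 5' to 3' on the strand of the gene:
Ier2 (chr19:40399283-40399338, plus strand): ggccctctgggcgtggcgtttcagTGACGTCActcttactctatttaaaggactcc
Dusp1 (chr10:17184705-17184760, plus strand): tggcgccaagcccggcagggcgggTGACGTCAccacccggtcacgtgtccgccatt
Jund (chr16:18769961-18770016, minus strand): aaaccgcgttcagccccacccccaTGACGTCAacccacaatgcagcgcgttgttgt
Zfp36 (chr1:92799109-92799164, minus strand): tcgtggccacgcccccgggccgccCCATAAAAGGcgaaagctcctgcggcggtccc
Klf6 (chr17:69458646-69458703, minus strand): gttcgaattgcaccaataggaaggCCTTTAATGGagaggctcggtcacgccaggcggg
The genes with the palindrome did not share 1 pattern, since Ier2 was 4.05-fold and Jund 1.36-fold between the lowest and the highest kidney. Klf6 gave 150.8, 137.6, 203.1, 116.4 and 109.3, highest in kidney 3.

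Proximal tubule transport genes were lower in kidney 3 and genes of later segments higher. The sodium-glucose cotransporter Slc5a2, target of the gliflozins, gave 641.5, 642.2, 279.0, 612.5 and 738.2, and the basolateral bicarbonate carrier Slc4a4 1809.0, 1929.6, 913.0, 2007.1 and 1853.7. The lactate carrier Slc5a12 gave 446.2, 408.6, 172.5, 440.7 and 521.6. In these 3, kidney 3 lay below all other kidneys. The peptidase Folh1 (70.2 against 174.9 or more) and serum amyloid P, Apcs (270.0 against 519.0 or more), were also lowest in kidney 3, as was the sulfate carrier Slc13a1 (590.3 against 912.7 or more). Slc5a2, Slc4a4 and Slc13a1 fall outside the naming rule and were chosen after their values were seen.

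Over the list, kidney 3 was lowest for 18 of the 25 proximal transport genes at 100 or more, beside 29.2% of all probe sets. Their median distance was -0.28 on the log2 scale, or -0.21 after quantile normalization. Among the 100 strongest probe sets of all kinds kidney 3 was lowest for 49, with a median of -0.23, or -0.007 after quantile normalization. For proximal enzymes and peptidases the median was -0.25, but only -0.05 after quantile normalization. In contrast, kidney 3 was highest for 6 of 10 thick limb genes (median 0.43), 9 of 14 genes of connecting tubule and principal cells (0.28) and 7 of 9 intercalated cell genes (0.46), beside 29.0% of all probe sets. Atp6v1g3 gave 955.2, 908.8, 1345.5, 862.5 and 923.8, and Rhcg 374.3, 311.3, 475.2, 302.8 and 366.8. For Ppp1r1a the values were 1332.2, 1354.7, 1972.8, 1141.0 and 1412.6. Among genes strong in the medulla, Cryab, a small heat shock protein, gave 2831.2 and the osmotically induced Akr1b1 gave 1294.0 in kidney 3, against at most 2205.6 and 1125.7 elsewhere. Of the 6 thin limb genes, kidney 3 was highest for 4, with a median distance of 0.54. Aqp1 (-0.15) and Bcl6 (-0.24) went the other way in kidney 3. Kidney 5 was lowest for 3 of the 6, with a median of -0.52, and Aqp1 was at 0.16 there. Strong markers did not all take part: Slc12a1, Umod, Car2 and Atp6v0a4 were not highest in kidney 3. The share of cortex and medulla in each sample was not tested as a part of these differences.

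**Figure D5:**
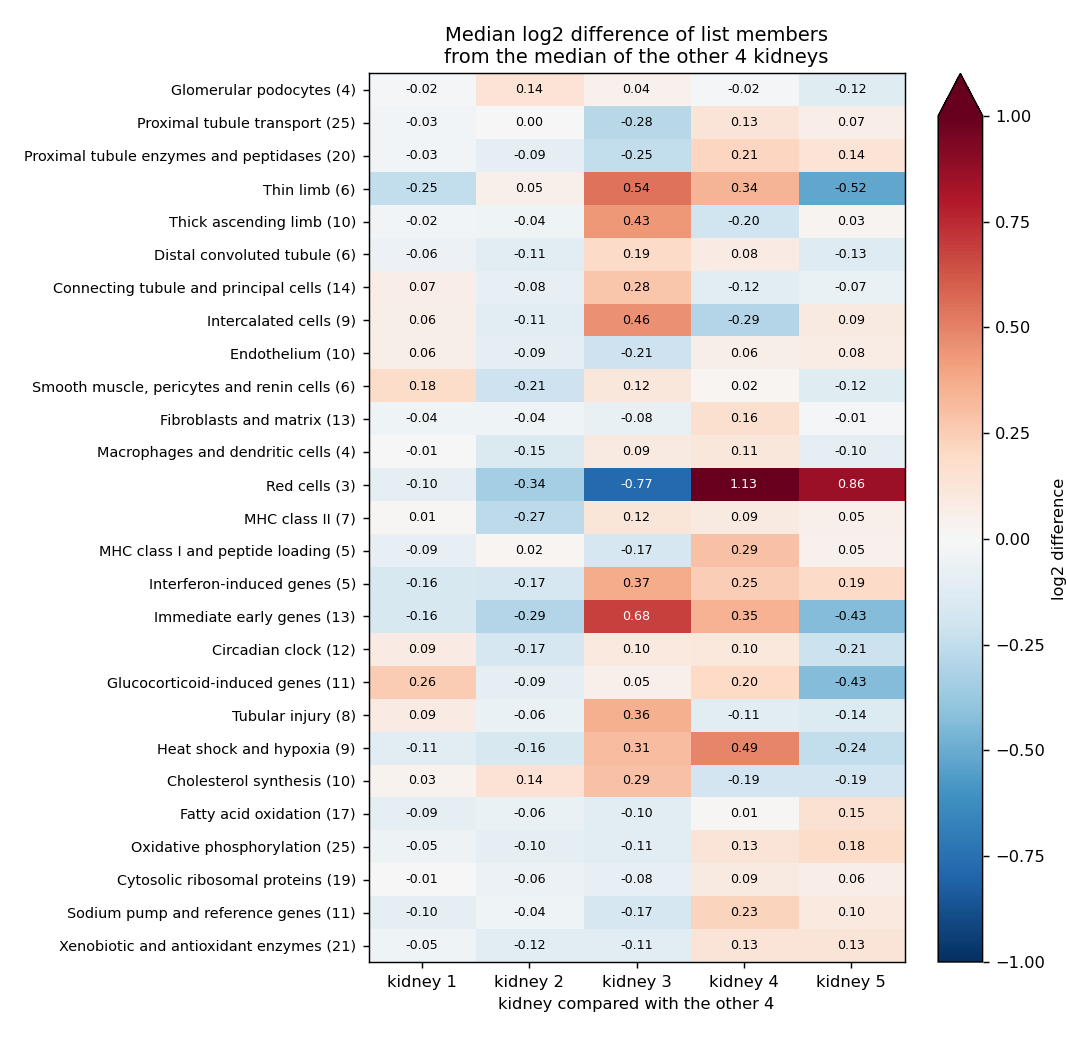
Median over list members of the log2 difference between 1 kidney (column) and the median of the other 4, for the 27 lists with at least 3 members at 100 or more (number in brackets), with red for higher and blue for lower. Kidney 3 shows lower proximal and higher distal and immediate early values, kidney 5 lower immediate early and glucocorticoid values, and kidneys 4 and 5 higher red cell values.

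Fat genes and part of the interferon-induced genes were also highest in kidney 3. The uncoupling protein of brown fat, Ucp1, gave 46.7, 62.9, 269.8, 29.7 and 40.6, the fatty acid binding protein Fabp4 71.9, 67.3, 240.9, 64.2 and 59.1, and Car3, abundant in fat and muscle, 158.1, 130.2, 453.5, 143.2 and 133.9. Of the 7 fat genes measured, 2 of them at 100 or more, 6 were highest in kidney 3, beside 28.9% of all 14217 genes, and their summed signal was 1883.9 there and 824.8 to 1027.1 in the others. The adipokine Adipoq was at 54.9 in kidney 3, with 37.5 to 46.7 elsewhere, and leptin, Lep, was near 0 in all kidneys (1.95). The part of fat tissue in the values of kidney 3 was not tested. The T cell chemoattractants Cxcl11 and Cxcl9 gave 759.5 and 194.8 in kidney 3 against at most 288.9 and 34.9 in the others, the ubiquitin-like Ubd 192.3 against at most 22.4, and the immunoproteasome subunit Psmb9 270.5 against at most 125.3. Kidney 3 was highest for 15 of the 20 interferon-induced genes measured, beside 28.9% of all genes, and for 3 of the 5 at 100 or more, beside 29.0%. The strongest of them, Ifi27, was at 596.6 in kidney 3 and highest in kidney 4 (707.3), and the factor Irf7 was lowest in kidney 3 (177.2) and highest in kidney 4 (235.7). Psmb9 belongs to the MHC class I list, whose median distance in kidney 3 was -0.17. The 15 T and NK cell genes, all under 100 on average, summed to 347.4 in kidney 3 and to 205.2 to 276.3 in the others, with Lck at 64.7 in kidney 3 and Cd3e at 13.9 to 18.8 over the 5 kidneys, and the part of such cells was not tested. S100a4 (789.5), the tight junction protein Cldn4 (205.0) and the protease inhibitor Slpi (148.0) were highest in kidney 3 as well, and the 7 urothelial genes summed to 173.7 there and to at most 114.7 in the others.

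Kidney 5 had the lowest values for many immediate early, stress and glucocorticoid-induced genes. Gadd45b gave 450.4, 301.7, 565.1, 297.5 and 96.8, the clock-output repressor Nfil3 241.3, 230.8, 260.9, 140.8 and 58.8, and the kinase Sik1 171.4, 162.8, 207.4, 146.5 and 54.0. The cell cycle inhibitor Cdkn1a gave 230.8, 149.2, 162.9, 114.7 and 56.3, and Pdk4, a brake on pyruvate use, 283.7, 204.5, 175.5, 133.0 and 71.9. Kidney 5 lay below the other kidneys for each of these 5 genes. They were picked for their spread or for lying low in kidney 5, so this is a description. It was lowest for 7 of 13 immediate early genes (median distance -0.43) and for 7 of 11 glucocorticoid-induced genes (-0.43), beside 19.8% of all probe sets at 100 or more. The latter distance was -0.29 without kidney 1 or without kidney 4. Both ratios of 3' to 5' signal were lowest in kidney 5, and their part was not tested. The clock gene Per1, which is also induced by glucocorticoids, gave 252.3, 148.1, 228.7, 173.8 and 89.0. The transcription factor Usf2 (42.4 against 128.0 or more) and the repressor Bcl6 (102.7 against 217.9 or more) were lowest there too. Weaker probe sets of Usf2 were lowest in kidney 4 instead (38.5 and 3.4), with kidney 5 at 42.9 and 16.2. Sgk1, the kinase that raises sodium uptake, was not lowest in kidney 5, at 3194.8, and Fkbp5, a chaperone of the glucocorticoid receptor, was highest in kidney 4, at 229.1.

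Oxidative phosphorylation genes were highest in kidney 5 for 19 of 25, beside 18.3% of all probe sets at 100 or more and 35.5% of those between 1000 and 5000. Their median distance was 0.18, or 0.12 after median centring and 0.04 after quantile normalization. Globin signals separated kidneys 4 and 5 from the others. Hbb, beta globin, gave 1591.2, 1780.6, 1390.2, 3680.9 and 3174.7, Hba-a3 165.0, 121.6, 112.6, 332.0 and 256.4, and Alas2, the haem synthesis enzyme of red cell precursors, 38.0, 38.9, 31.5, 91.4 and 77.0. Kidneys 4 and 5 lay above kidneys 1 to 3 in each of these. The share of all probe sets split in this way was not counted. The strongest globin probe set, shared by Hba-a1 and Hba-a2 and so left out of the list, gave 3155.6, 3143.6, 3118.4, 5737.4 and 5249.1. Over the globin probe sets the highest kidney was 1.84-fold to 3.40-fold above the lowest. In the 3 red cell genes at 100 or more, the median distance of kidney 4 was 1.13, or 0.96 after quantile normalization. Slc4a1, which intercalated cells also make, was highest in kidney 3 instead, and Epb42 was near 0 at 2.90. The summed signal of the 6 measured genes of this list was 1937.8 to 2158.5 in kidneys 1 to 3, 4300.6 in kidney 4 and 3756.1 in kidney 5, and the part of retained blood was not tested.

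Kidneys 1, 2 and 4 had fewer values of their own. Cish, a feedback inhibitor of cytokine signals, gave 63.3, 118.0, 266.7, 248.0 and 172.4, lowest in kidney 1. Akr1b8 (82.1 against 139.5 or more) and Gpx2 (100.6 against 161.6 or more) were lowest in kidney 1 too. In kidney 2, Plagl1 was lowest at 75.9 and Pikfyve highest at 296.7. MHC class II genes were lowest in kidney 2 for 6 of 7, beside 15.6% of all probe sets at 100 or more, for example RT1-Ba at 818.9, 630.9, 775.2, 807.0 and 788.8. The difference was small, with a median of -0.27. In kidney 4 the kallikrein relative Klk1c9 was lowest at 119.0 against 224.5 or more, and Klk1 gave 2241.0, 2263.0, 2339.2, 1722.1 and 2348.2. Kidney 4 was also lowest for 8 of 14 principal cell genes and 7 of 9 intercalated cell genes, beside 19.8% of all probe sets. It was highest for 5 of 9 heat shock and hypoxia genes, with a median distance of 0.49, and kidney 3 was highest for 4. Of 25 proximal transport genes, 14 were highest in kidney 4, with a median of 0.13, or 0.07 after quantile normalization. The share of all probe sets at 100 or more highest in kidney 4 was 19.7%. Rsrp1 ran from 269.7 in kidney 4 to 832.9 in kidney 5, and the clock gene Dbp from 83.4 in kidney 2 to 185.4 in kidney 4.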

How the data were processed

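Total RNA of each kidney was labelled with biotin and hybridized to 1 array. The authors summarised probes to signal intensities with MAS5. The deposited intensities share a scale: after trimming 2% of values at each end, every array averaged 100.04. Detection calls were not used here. Signals were taken as deposited, with a floor of 0.05 for 14 zeros (13 probe sets) when logs were taken. Probe sets were named from the platform annotation (436 had several symbols and 9780 none here), and 20758 of the 20826 symbols were found in RefSeq. Each gene took its probe set of highest geometric mean. Graft arrays were not used, and no groups were compared, because the design holds 1 group. Dixon's gap ratio marked single distant kidneys.

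The distance of a kidney is its log2 signal minus the median of the other 4. Named genes were the 25 strongest, the 4 strongest of each of 35 lists, the 25 most and 10 least variable at 100 or more, the 5 farthest above and below in each kidney, list markers near 0 and sex genes, except where stated. Slc5a1, Slc12a1, Per1 and Klf6 were also named outside that rule. Lists and rules were chosen with earlier results of these data known. The functions were checked on simulated arrays. Alternatives were the arithmetic mean, median centring, quantile normalization, other signal limits and leaving out each kidney. Tools were Python 3.11.15, pandas 2.3.3, numpy 2.4.6 and matplotlib 3.10.9. The number of arrays limits the precision.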

Additional observations from a re-analysis of the deposited data

Results flagged for a closer look

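In 19 of the 150 named genes, or 12.7%, 1 kidney lay apart from the other 4 by Dixon's gap ratio on log2 signals (the gap to the nearest kidney over the whole range, above 0.71). Chance alone passes this limit in about 5% of groups, 7.13% of the 8143 probe sets at 100 or more did so, and many of the named genes were picked for their spread, so the count is no result about them. Of the 581 such probe sets, 365 had kidney 3 as the distant kidney.

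Kidney 3 was the distant low kidney for Agtr1a (0.885), Slc4a4 (0.868), LOC102550354 (0.846), Slc5a2 (0.808), Slc5a12 (0.779) and Folh1 (0.769). Agtr1a gave 511.3, 521.3, 321.1, 511.3 and 543.1. It was the distant high kidney for Psmb9 (0.877), Fabp4 (0.86), Ubd (0.86), Car3 (0.844), Fdft1 of cholesterol synthesis (0.807, at 609.4 against 508.2 or less), Junb (0.774) and Atp6v1g3 (0.77). Kidney 5 was distant for Usf2 (0.956, low, in its strongest probe set), Sik1 (0.742, low) and Cd3e (0.748, high, at signals of 13.9 to 18.8). Kidney 4 was distant and low for Klk1 (0.849). Kidney 2 was low for RT1-Ba (0.79) and for the mean of the MHC class II list (0.932), the only 1 of 27 lists past the limit. In kidney 1, Tagln, a smooth muscle actin-binding protein, was high at 318.2 against 239.1 or less (0.809).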

How the results depend on the processing

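The counts at 100 or 1000 stayed close to the values above under arithmetic means, median centring, quantile normalization and leaving out any kidney. The 100 strongest shared by all kidneys are ranked within each array. Arithmetic means, median centring and quantile normalization therefore could not change their number. Leaving out 1 kidney can only keep or raise that number, and gave 75 to 82. The share of signal in the 100 strongest stayed close under quantile normalization and leaving out any kidney. Median centring cannot change a share, and arithmetic means were not tried for it. With 1 probe set a gene the share was 11.8%. The median correlation was 0.987 on log2(signal + 16) and 0.983 over probe sets at 100 or more. Probe sets over 2-fold apart numbered 1319 at a limit of 20 and 43 at 500. Leaving out 1 kidney gave 60 to 198, the lowest without kidney 3, and deviations of over 2-fold in 1 kidney, 108 in all, numbered 44 to 132, also lowest without kidney 3. The last alternatives and the list distances were chosen after seeing the data. Of the 10 list distances, quantile normalization moved those of proximal enzymes and peptidases in kidney 3 (-0.047) and oxidative phosphorylation in kidney 5 (0.042), and none changed sign. The distance of glucocorticoid-induced genes in kidney 5 ran from -0.62 to -0.29 when 1 other kidney was left out. Among 150 named genes, the median over a gene's probe sets moved 33 levels beyond their SD, and no other alternative moved any. Weak signals limit the rest: under 20 the median SD was 0.87 on the log2 scale.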
